A study of Mus musculus with 367 samples.

Results

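Expression of 9 genes of the acute-phase and interleukin-6 (IL-6) type response was described in single cells of healing mouse skin. The genes were the ligand Il6, the receptor chains Il6st and Osmr, the signal transducer Stat3, the feedback inhibitor Socs3 and the acute-phase proteins Saa3, Hp, Serpina3n and Lcn2. They were 9 of the 50600 gene identifiers in the files and were chosen by name, with earlier results of these data known. Saa3 was among the genes that led a group of day 12 matrix cells in those earlier results, so its level in that group is given as a description, with no test. The data come from a study of wound fibroblasts, in which dermal cells of Sm22-Cre;tdTomato mice, labelled as 3 to 8 weeks old, were collected after an excision of 1.5 cm by 1.5 cm on the back. Every cell carried the Sm22-Cre and tdTomato alleles, so no group was free of the transgene. Cre was driven by the Sm22 (Tagln) promoter, which is active in contractile cells, and viable cells with high tdTomato were sorted, so other wound cells were depleted and the myeloid cells described here are those with high tdTomato. Tissue was taken at post-wounding day (PWD) 12, 15 and 21 from 2 to 3 animals per time point and pooled, and the mice had a mixed background.

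The 367 cells were obtained in 7 microfluidic captures, with 3 at day 12, 2 at day 15 and 2 at day 21. The labels do not say that captures came from different animals, so the spread between captures may be technical and p-values measure that spread alone. Filters on depth, gene number and mitochondrial content kept 292 cells. Kinds of cells were set by 3 genes that are not among the 9 members. Matrix cells had Col1a1 of at least 1000, Rgs5 under 100 and Tyrobp under 50 fragments per kilobase of transcript, scaled to the mapped fragments of the cell (FPKM), mural cells had Rgs5 of at least 500 and Tyrobp under 50, and myeloid cells had Tyrobp of at least 500. This gave 198 matrix, 57 mural and 26 myeloid cells, and 11 kept cells of no kind. The lowest Col1a1 value inside its gate was 1011 FPKM and the highest outside was 994, for Rgs5 the values were 609.7 and 419.6, and for Tyrobp they were 1343 and 206.5.

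Marker lists were read beside the gates, but those of matrix cells, mural cells and macrophages each hold their own gate gene (Col1a1, Rgs5 or Tyrobp). Their sums and counts are therefore set in part by the gates. The summed level of 8 mural markers ranged from 7829 to 9144 FPKM over captures in mural cells and from 24.5 to 55.2 in matrix cells. The sum of 10 macrophage markers ranged from 24429 to 39904 FPKM in myeloid cells and stayed at or below 74.2 in the other kinds. Separation was weaker for 8 matrix markers, whose summed level was 25249 to 45519 FPKM in matrix cells, 6278 to 20980 in mural cells and 99.3 to 15798 in myeloid cells. In the tests described below, 8 of 8 matrix markers were lower in mural and 7 of 8 in myeloid cells, 6 of 8 mural markers were higher in mural cells and 10 of 10 macrophage markers were higher in myeloid cells. These counts include the gate genes and other markers that were low in matrix cells. Fcer1g and Kcnj8 had means of 0.962 and 0.743 FPKM over all matrix cells, under the mean of 1 FPKM that the test required. Such calls were set in part by the kind where the marker was high. Outside the gate genes, the calls included Dcn, Lum and Fbln2, lower in mural cells, and Mcam, higher there. Most markers of other cell types were too low to be tested. In the mural and myeloid comparisons 3 and 4 of 8 neutrophil and 0 and 1 of 6 T and B cell markers were tested. For endothelium it was 2 and 1 of 6, for keratinocytes and for hepatocytes 1 and 1 of 6. For Schwann cells and melanocytes it was 3 and 3 of 6, and none of the markers tested passed. The T and B cell sum had a median of 348 FPKM in the 3 myeloid cells of day 21 capture 2. The median estimated depth per cell was 946320 to 2327600 fragments over the captures, and by kind it was 1447700 fragments in matrix, 1215100 in mural and 2096200 in myeloid cells. Among 42486 pairs of kept cells, 16 pairs held 16.4 to 81.9% of their common genes at 1 fixed ratio, against at most 8.2% in every other pair. These linked pairs took in 27 cells, 12 of the pairs lay within day 12 capture 2 or day 21 capture 2, and 4 joined day 12 capture 3 to day 15 capture 2. Results that moved most without these cells are given both ways. The descriptions of the 40 cells of day 12 capture 3, the capture with linked pairs across days, point to the table of capture 2, and its own table was assigned by elimination.

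IL-6 is a cytokine made by stromal and immune cells after injury. It binds a ligand-specific receptor and then gp130, the shared signalling chain encoded by Il6st, while oncostatin M, a related ligand of macrophages and neutrophils, signals through gp130 joined to the receptor encoded by Osmr. The receptors activate Janus kinases, which phosphorylate STAT3, and STAT3 induces Socs3, which blocks the receptor in turn. In the liver this route induces the acute-phase proteins of plasma, and several of them, Saa3 in particular, are also made outside the liver.

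Sequences upstream of the genes were read to show which binding motifs named for these factors lie in front of members with unlike expression. RefSeq promoter entries of the mouse build GRCm38.p6 matched 8 of the 9 members, with none used here for Hp. The 250 bases before each start were searched on both strands for TTCNNNGAA (the STAT motif), TTNNGNAA (the C/EBP motif), TGANTCA (the AP-1 motif) and the NF-kB consensus. Of 32851 mouse promoters of this length, 7.02% held the first, 36.8% the second, 6.75% the third and 3.9% the NF-kB consensus, and no matches in the members overlapped. Capitals mark the matches. Il6 is shown for its 3 different motifs (chr5:30012864-30013113, plus strand), Saa3 for its 4 C/EBP matches (chr7:46715677-46715926, minus strand) and Socs3 for its STAT match (chr11:117969367-117969616, minus strand).
Il6: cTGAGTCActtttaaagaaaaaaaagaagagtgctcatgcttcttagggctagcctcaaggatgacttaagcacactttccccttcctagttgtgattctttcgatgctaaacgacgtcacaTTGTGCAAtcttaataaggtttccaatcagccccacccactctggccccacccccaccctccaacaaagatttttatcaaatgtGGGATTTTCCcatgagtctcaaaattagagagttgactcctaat
Saa3: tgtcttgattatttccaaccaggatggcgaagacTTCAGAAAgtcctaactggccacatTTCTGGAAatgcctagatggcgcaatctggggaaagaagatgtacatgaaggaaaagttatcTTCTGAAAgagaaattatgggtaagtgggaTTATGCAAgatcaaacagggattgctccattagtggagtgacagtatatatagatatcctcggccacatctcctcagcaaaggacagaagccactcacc
Socs3: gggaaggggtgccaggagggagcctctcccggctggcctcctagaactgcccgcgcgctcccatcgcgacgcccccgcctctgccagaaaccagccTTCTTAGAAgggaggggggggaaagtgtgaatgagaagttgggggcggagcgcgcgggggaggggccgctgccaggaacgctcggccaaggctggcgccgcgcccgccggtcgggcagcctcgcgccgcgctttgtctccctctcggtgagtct
In Il6 the AP-1 match was TGAGTCA, the C/EBP match TTGTGCAA and the NF-kB match GGGATTTTCC, which lay 44 to 35 bases before the start. The 4 Saa3 matches, all to the C/EBP motif, were TTCAGAAA, TTCTGGAA, TTCTGAAA and TTATGCAA. Socs3 had the single STAT match among the members, TTCTTAGAA, 154 to 146 bases before the start. Serpina3n had 2 C/EBP matches, Lcn2 and Stat3 had 1 each, and the windows of the receptor genes Il6st and Osmr held none of the 4 motifs. A match is a description of letters, and binding was not measured.

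Il6 (ENSMUSG00000025746, chromosome 5, 30013114 to 30019981, plus strand, GRCm38) was detected at high values in few cells, and most of these were mural or matrix cells. At 10 FPKM or more it was found in 16 of 57 mural cells, 16 of 198 matrix cells and 0 of 26 myeloid cells, where a count of 0 leaves room for a share of 11.5% at most. Without the linked cells the counts were 14 of 52 mural and 13 of 181 matrix cells. The capture means in mural cells were 0, 577, 127, 360 and 51.4 FPKM in day 12 captures 1, 2 and 3, day 15 capture 1 and day 21 capture 1. In matrix cells the 7 capture means ranged from 0 to 179 FPKM with a median of 9.25. Mural cells were above matrix cells in 4 of 5 captures, and in day 12 capture 1 both were listed at 0. The ranges of the kinds nevertheless overlapped, since the mural means of day 12 captures 1 and 3 and of day 21 capture 1 lay under the highest matrix mean.

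Single cells carried much of this level. The highest matrix cell held 4106 FPKM, which was 97.1% of the sum of its capture, and the matrix mean of day 15 capture 1 was 84.6 FPKM with that cell and 2.53 without it. Among mural cells the highest value was 3120 FPKM. In mural cells of day 12 capture 2 the signal was broader, with 6 of 7 cells at 10 FPKM or more and a median of 302 FPKM. Of these 6 cells, 2 were linked to each other, and without them 4 of 5 cells were at this level, with a median of 515 FPKM. Of the 32 matrix and mural cells with Il6 at 10 FPKM or more, 20 also had Il6st at this level, and 15 of 27 without the linked cells. With all cells it was 12 of 16 mural cells, against 34 of all 57, and 8 of 16 matrix cells, against 51 of all 198. Day 21 capture 2 held 8 of the 16 Il6 and 21 of the 51 Il6st matrix cells. In myeloid cells the highest of 4 capture means was 0.893 FPKM, and every myeloid capture lay under the matrix cells of its own capture. In day 15 capture 2 this was 0 against 0.228 FPKM.

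The signalling chain Il6st (ENSMUSG00000021756, chromosome 13, 112464070 to 112510086, plus strand) was higher in mural than in matrix cells in all 5 captures. Its capture means in mural cells were 55.4, 21.0, 34.7, 61.1 and 112 FPKM in day 12 captures 1, 2 and 3, day 15 capture 1 and day 21 capture 1. The matrix means of the same captures were 2.68, 9.77, 4.71, 8.34 and 5.64 FPKM. The highest of these matrix means lay under the lowest mural mean, and the 1 matrix mean that reached the mural range, 31.1 FPKM, came from day 21 capture 2, which had no mural cells. Myeloid cells were lowest, with capture means of 0.408 to 3.24 FPKM. Averaged over captures the level was 56.8 ± 34.6 FPKM in mural (SD, n = 5), 9.37 ± 9.91 in matrix (SD, n = 7) and 1.51 ± 1.30 in myeloid cells (SD, n = 4).

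Detection followed the same order. Il6st was at 10 FPKM or more in 34 of 57 mural, 51 of 198 matrix and 2 of 26 myeloid cells. Of the 51 matrix cells, 21 came from day 21 capture 2, where they were 61.8% of the cells, against 11.8 to 23.1% in the other 6 captures. A single cell gave 85.3% of the Il6st sum in mural cells of day 12 capture 1 and 82.1% in day 21 capture 1. Without the highest cell of each capture, the mural means were 9.17 to 42.6 FPKM and the matrix means 2.07 to 28.2. Without the linked cells the mural mean of day 12 capture 2 was 11.6 FPKM, against 9.10 in its matrix cells.

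Osmr (ENSMUSG00000022146, chromosome 15, 6813577 to 6874969, minus strand), the chain that joins gp130 to bind oncostatin M, had the same order of kinds. The mural means were 48.3, 57.4, 56.2, 31.9 and 70.2 FPKM in the same 5 captures, and the matrix means ranged from 7.30 to 27.9 with a median of 11.8. No mural mean lay within the matrix range, and the averages over captures were 52.8 ± 14.1 (SD, n = 5) and 15.8 ± 8.54 FPKM (SD, n = 7). The 4 myeloid means were 0 to 1.22 FPKM, under every matrix mean, and no myeloid cell reached 10 FPKM. In mural cells 28 of 57 were at or above that value and in matrix cells 43 of 198. By capture the mural share was the larger one in all but day 12 capture 1, where it was 22.2% of 9 mural against 32.3% of 31 matrix cells. There 1 mural cell at 392 FPKM gave 90.2% of the sum, and the mural mean was 5.30 FPKM without it, so this capture's higher mural mean rested on that cell.

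**Figure D1:**
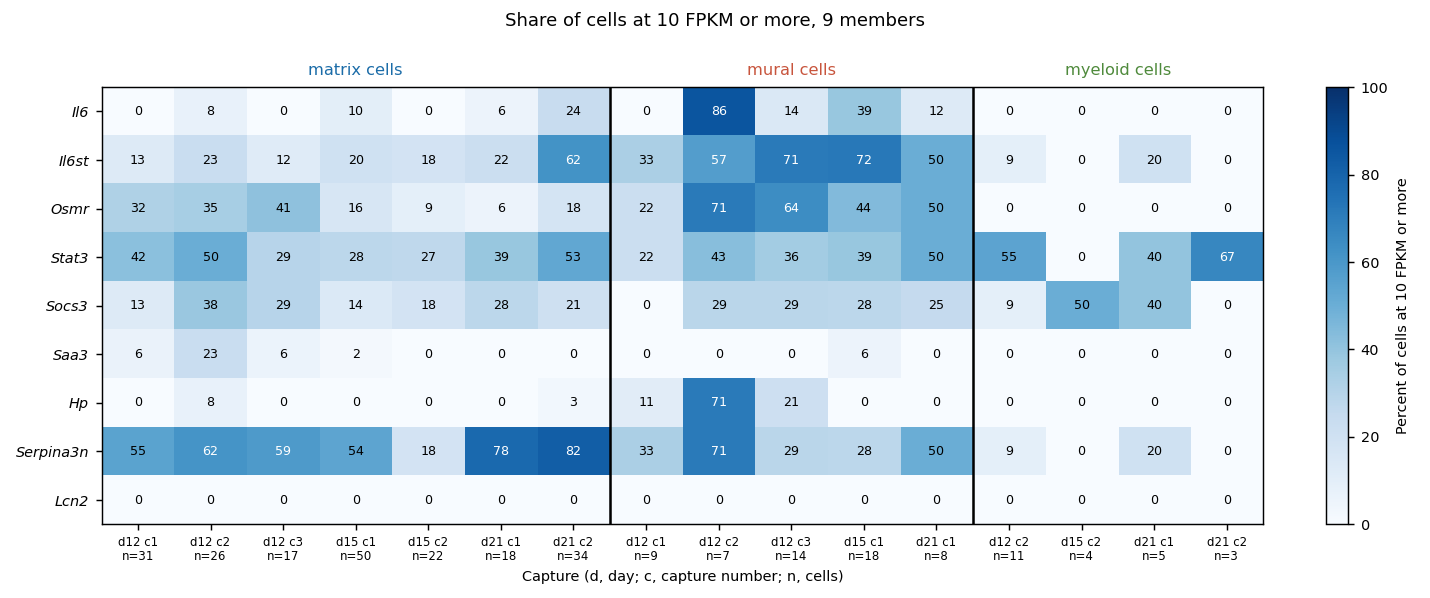
Percent of cells at 10 FPKM or more (colour and printed number) for each of the 9 members (rows) in each capture and kind with at least 3 cells (columns, with the number of cells). Il6st reached this level in a larger share of mural than of matrix cells in all 5 captures with both kinds and Osmr in 4 of the 5, Saa3 stood out in matrix cells of day 12 capture 2, Hp in mural cells of day 12, and Lcn2 was at 0 throughout.

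Both receptor chains were found together in part of the mural cells. There, 19 of 57 cells had Il6st and Osmr at 10 FPKM or more, which was 55.9% of the Il6st-positive and 67.9% of the Osmr-positive cells, and without the linked cells the count was 15 of 52. Over all mural cells Osmr was at this level in 28 of 57 and Il6st in 34 of 57. In matrix cells 13 of 198 had both, 25.5% of the Il6st-positive and 30.2% of the Osmr-positive cells. Over all matrix cells the counts were 43 of 198 for Osmr and 51 of 198 for Il6st. The joint counts were not tested against these. Within captures the Spearman correlation of Il6st and Osmr over mural cells averaged 0.36 and was above 0 in 5 of 5 captures, and over matrix cells it averaged 0.20 and was above 0 in 6 of 7. Cells of 1 capture share their source and differ in depth, so these correlations are descriptions.

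Tests between kinds used 1 mean per capture and kind, on the log2(mean FPKM + 1) scale, with capture as a block, in limma with Benjamini-Hochberg adjustment over all genes. On this scale the change of low genes is understated. Between mural and matrix cells 1.71% of 13823 genes passed the adjusted p of 0.05, and 1 of the 8 members tested passed. The median difference was 1.08 for the members and −0.22 for all genes. Here and below, the 8 members tested and their median include Saa3, whose own p is not given. Il6st was higher in mural cells by 2.89 (SE 0.617, limma adjusted p = 0.0489, higher in 5 of 5 captures). It was close to the threshold. Over 13 alternatives the difference stayed between 1.91 and 3.35, with adjusted p from 0.000814 to 0.246, and 4 of them passed. The call was lost when day 12 capture 1 (adjusted p = 0.157), day 12 capture 3 (0.134), day 15 capture 1 (0.151) or day 21 capture 1 (0.117) was left out, and also without the linked cells, where the difference was 2.73 (adjusted p = 0.0844).

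The other members did not pass in this comparison by limma. Osmr had a difference of 1.57 (SE 0.514, adjusted p = 0.191) with the mural mean higher in 5 of 5 captures, and 1 of 13 alternatives passed, the mean over cells of the logged values (1.86, adjusted p = 0.0151). Il6 had 3.17 (SE 0.890, adjusted p = 0.125) and Hp 3.29 (SE 1.05, adjusted p = 0.176), and neither was lower in mural cells in any capture. The values for Socs3, Stat3 and Serpina3n were 0.60, 0.08 and −0.62, with adjusted p of 0.735, 0.966 and 0.660. In simulated data a log2 change of 4 was called for 61.5% of changed genes in this comparison and a change of 2 for 0.5%, so differences of the size seen for Osmr were mostly not detectable with 5 captures.

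Between myeloid and matrix cells, compared in 4 captures, 6.59% of 13059 genes passed and 1 of 8 members, Osmr, was called. The median difference of all genes was −0.998, that of the members −2.26, so lower values in myeloid cells were common. Osmr was lower in myeloid cells by 3.08 on the log2 scale (SE 0.830), with lower means in 4 of 4 captures, again close to the threshold. It averaged 0.453 FPKM over the myeloid captures, under the mean of 1 FPKM required, so it entered this test only through its matrix values. The call is therefore a description, and no p is given. The difference lay between −3.42 and −0.995 in 11 alternatives, and 4 of them gave the call. The call was lost when any of the captures was left out. Il6 averaged 0.223 FPKM over the myeloid captures and also entered only through its matrix values, so no p is given. Its difference was −3.75, with lower myeloid means in 4 of 4 captures, though 0 against 0.228 FPKM in day 15 capture 2. For Serpina3n the difference was −4.27 (limma adjusted p = 0.0628, lower in 4 of 4 captures). Il6st was lower in 4 of 4 captures with −2.13 (limma adjusted p = 0.163). Over the alternatives Serpina3n passed in 4 of 12 (adjusted p from 0.00127 to 0.29) and Il6st in 1 of 12 (0.0085 to 0.457). Il6 was called in 2 of 11. Hp, Stat3 and Socs3 gave −1.33, −0.94 and −0.33. Hp was at 0 in every myeloid capture and entered in the same way as Il6. The median of the members includes Osmr, Il6 and Hp. The 4 myeloid cells of day 15 capture 2 had high matrix markers, with a median sum of 15797 FPKM, whereas in the 5 of day 21 capture 1 the median was 8.8 and the mean 6214, and the part of this in the member values was not tested.

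**Figure D2:**
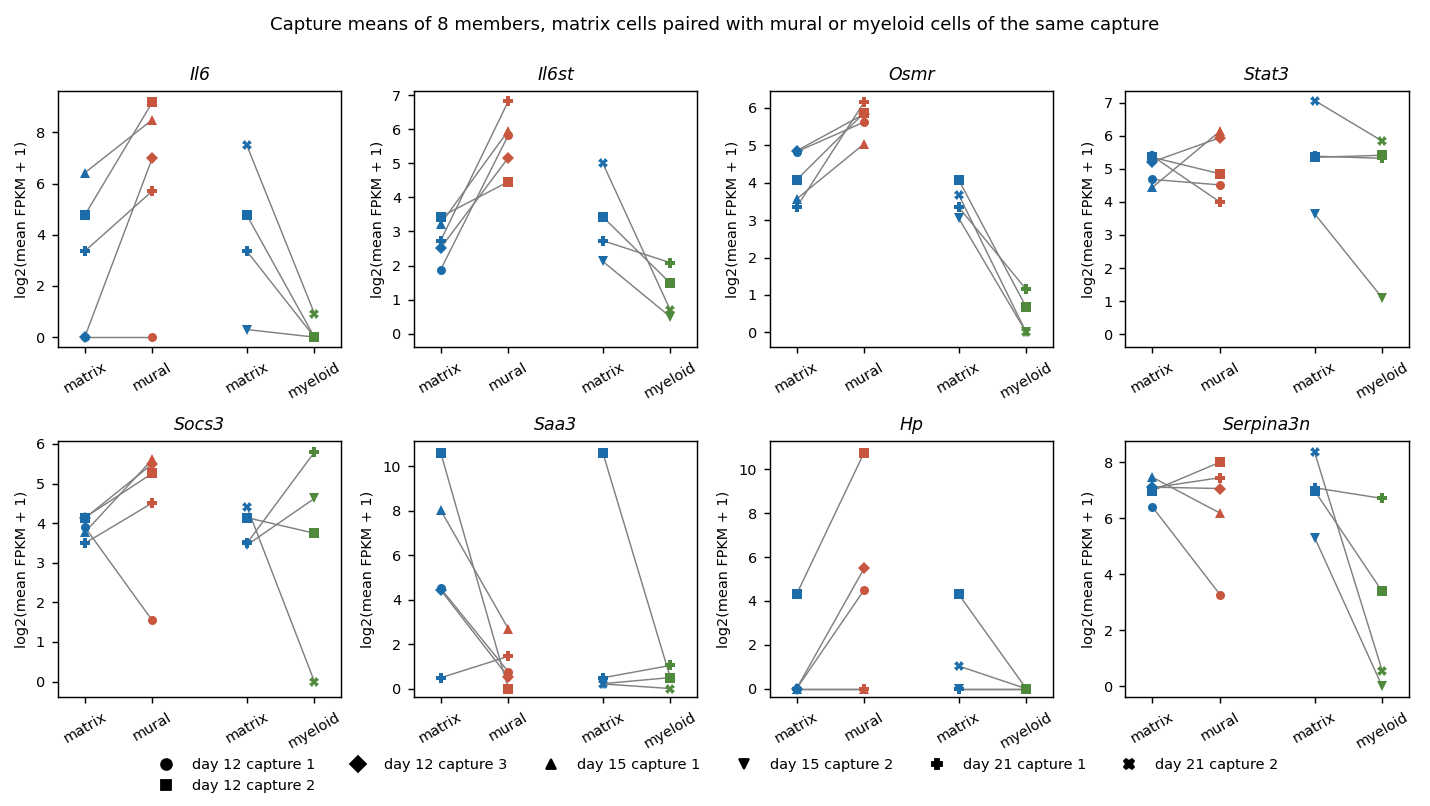
log2(mean FPKM + 1) of 8 members (panels) in matrix cells and in mural or myeloid cells of the same capture, with 1 symbol per capture and a line joining the 2 kinds. The lines rise from matrix to mural cells in all 5 captures for Il6st and Osmr and fall to myeloid cells in all 4 captures for Osmr, Il6, Il6st and Serpina3n.

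Osm, the gene of oncostatin M, was found in the kind of cells with the lowest Osmr. Osm was listed at 0 in all 255 matrix and mural cells (a share of at most 1.18% is possible) and had capture means of 20.6, 33.995, 52.3 and 15.7 FPKM in myeloid cells, in 7 of 26 of which it was at 10 FPKM or more. Ebi3, a cytokine subunit, was also listed at 0 in matrix cells. Osm and Ebi3 entered the limma test between myeloid and matrix cells only through their myeloid values. Their calls as higher in myeloid cells are therefore a description, and no p is given. For both, no fold is given against a group at 0. The Il6ra transcript, which encodes the ligand-specific receptor of IL-6, had capture means of at most 1.80 FPKM in matrix and 0.0625 in mural cells, and 15.2, 0, 0.09 and 2.28 FPKM in the 4 myeloid captures, with 2 of 11 cells at 10 FPKM or more in the first. Il11ra1, the receptor of interleukin-11, ran opposite to Il6st between mural and matrix cells, with mural means of 13.9 to 94.1 and matrix means of 114 to 434 FPKM, a difference of −2.51 (SE 0.448, adjusted p = 0.0227). Lifr overlapped between these 2 kinds, at 2.72 to 63.3 FPKM in mural and 4.10 to 24.8 in matrix cells. Of 10 other ligands of the family 3 were tested in the myeloid comparison, where only Osm and Ebi3 were called, through their myeloid values. Of 6 other receptors 3 were tested, where Il11ra1 passed in the mural comparison and none in the myeloid one.

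**Figure D3:**
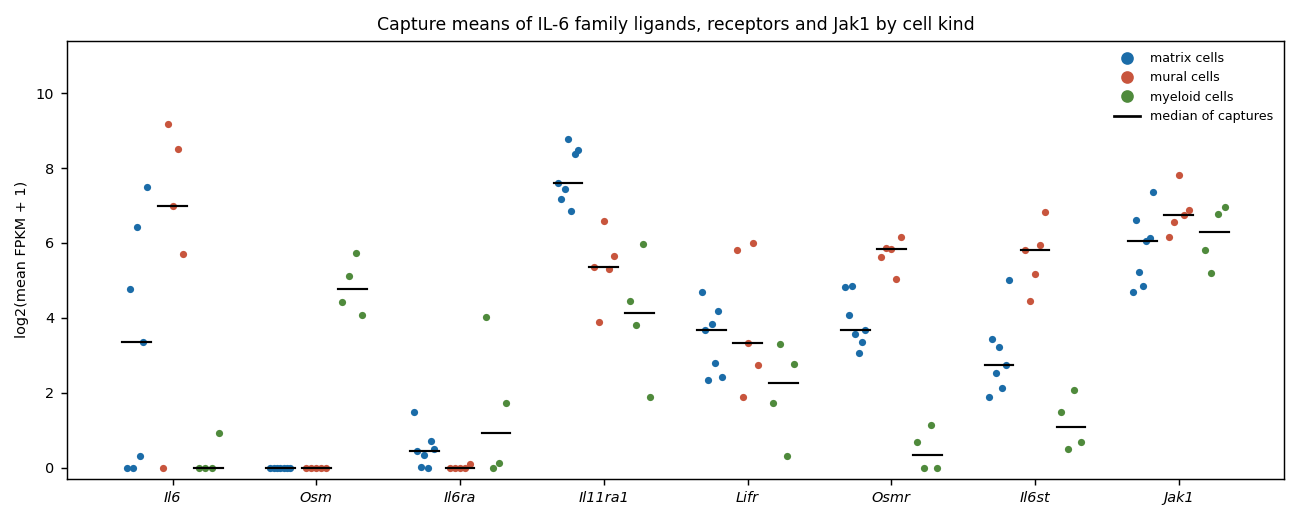
Capture means on the log2(mean FPKM + 1) scale for 2 ligands, 5 receptor genes and Jak1, with 1 point per capture in matrix, mural and myeloid cells and a bar at the median. Osm lies at 0 in every matrix and mural capture and above 0 in all 4 myeloid captures, while the medians of Osmr and Il6st are highest in mural and lowest in myeloid cells.

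Stat3 (ENSMUSG00000004040, chromosome 11, 100885098 to 100939540, minus strand) was found in every kind. It was at 10 FPKM or more in 38.4% of matrix, 38.6% of mural and 42.3% of myeloid cells. Its capture means were 21.8, 27.8, 60.5, 69.6 and 15.0 FPKM in mural cells, 11.5 to 133 with a median of 36.1 in matrix cells, and 1.14 to 56.3 in myeloid cells. The ranges overlapped throughout. Linked cells gave 83.6% of the mural sum of day 12 capture 2, and its mean was 6.38 FPKM without them. The highest matrix mean, 133 FPKM in day 21 capture 2, drew 53.05% of its sum from 1 cell at 2400 FPKM and was 64.4 without it.

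Socs3 (ENSMUSG00000053113, chromosome 11, 117966079 to 117970047, minus strand) was also spread over the kinds, at 10 FPKM or more in 21.2% of matrix, 22.8% of mural and 19.2% of myeloid cells. The matrix means were the most even of the 8 members detected, from 9.89 to 20.4 FPKM over the 7 captures, although the lowest, that of day 15 capture 2, was 3.87 without the linked cells. Mural means were 1.91, 37.3, 44.1, 47.8 and 21.8 FPKM, so that 4 captures lay above every matrix mean and day 12 capture 1 lay under them all. In each mural capture the highest cell gave 57.8 to 86.1% of the sum, and without that cell the difference between mural and matrix cells was −0.25 in place of 0.60 (adjusted p = 0.818 and 0.735).

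Saa3 (ENSMUSG00000040026, chromosome 7, 46711998 to 46715700, minus strand), an acute-phase apolipoprotein made outside the liver, was high in very few matrix cells, nearly all at day 12. The matrix means were 21.8, 1574 and 20.7 FPKM in the day 12 captures, 260 and 0.164 at day 15, and 0.400 and 0.155 at day 21. At 10 FPKM or more it was found in 10 of 198 matrix cells, with 2 of 31, 6 of 26 and 1 of 17 at day 12, 1 of 50 in day 15 capture 1 and none later. In these cells it ranged from 44.6 to 36811 FPKM, and no other matrix cell exceeded 3.99. The cell at 36811 FPKM gave 89.97% of the sum of day 12 capture 2, and the cell at 12975 gave 99.9% of that of day 15 capture 1, whose mean was 0.382 FPKM without it. Of the 10 cells, 1 was linked, and 9 of 181 remained without the linked cells.

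Values of Saa3 under 10 FPKM did not separate the kinds. They were found in 85 of 198 matrix, 19 of 57 mural and 13 of 26 myeloid cells, with medians of 0.51, 1.17 and 0.52 FPKM. Since the share in myeloid cells was no lower than in matrix cells at median depths of 2096200 and 1447700 fragments, these values were not read as expression, and their source was not tested. The share of cells above 0 ran from 18.2 to 67.7% over the matrix captures. In mural cells 1 of 57 reached 10 FPKM, at 92.4, and the capture means were 0.694, 0, 0.434, 5.48 and 1.73 FPKM. The related Saa1 and Saa2 genes were listed at 0 in every matrix, mural and myeloid cell, and Saa4 did not exceed 3.16 FPKM.

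Cells high in Saa3 also had the serine protease inhibitor Serpina3n. All 10 had it at 10 FPKM or more, as had 116 of 198 matrix cells overall and 43 of 74 at day 12. Over all matrix cells, most with Saa3 under 10 FPKM, the within-capture Spearman correlation of these 2 genes averaged −0.10. It was above 0 in 2 of 7 captures. The cells with the highest and the next highest Saa3 ranked 2 and 1 of 198 for Serpina3n, at 1013 and 3119 FPKM, whereas the other 8 ranked from 23 to 101. Of the 3 matrix cells with Hp at 10 FPKM or more, 2 were among them, at 417 and 66.2 FPKM. None of the 10 had Il6 above 2.37 FPKM, and Il6st was at 10 FPKM or more in 4 of them.

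**Figure D4:**
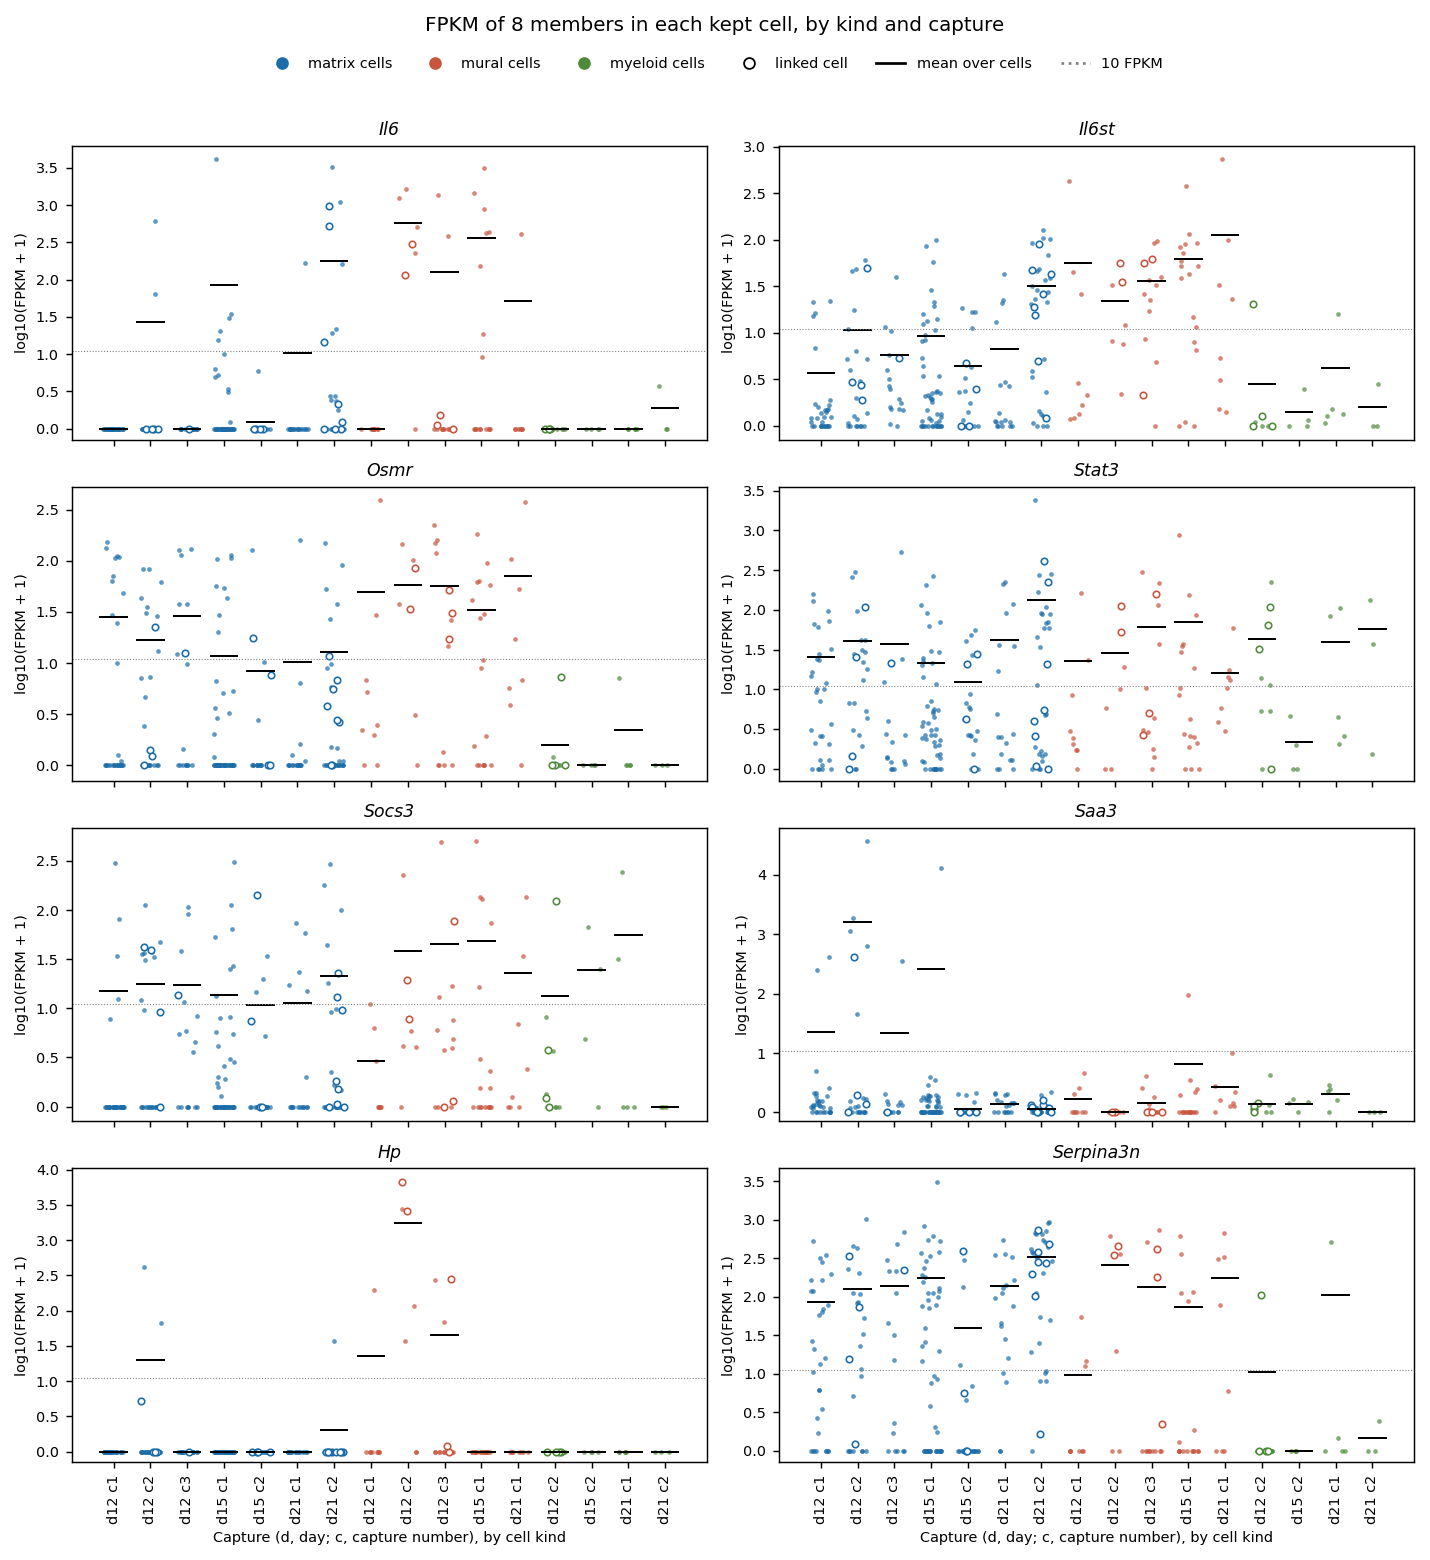
log10(FPKM + 1) of 8 members in each kept cell (points) by kind and capture, with the mean over cells as a bar, linked cells as open circles and 10 FPKM as a dotted line. Saa3 and Hp form a cloud near 0 with a few cells far above it, up to 36811 and 6685 FPKM, while Serpina3n and Stat3 fill the range between.

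Haptoglobin, Hp (ENSMUSG00000031722, chromosome 8, 109575128 to 109579172, minus strand), which binds free hemoglobin in plasma, was found mainly in day 12 mural cells. It was at 10 FPKM or more in 9 of 30 mural cells at day 12, with 1 of 9, 5 of 7 and 3 of 14 in the 3 captures, and in 0 of 27 later mural cells, where a share of at most 11.1% is possible. The mural means were 21.7, 1748 and 43.9 FPKM at day 12 and 0 in both later captures. The highest cell, at 6685 FPKM, was linked to another at 2605, and linked cells gave 75.9% of the sum of day 12 capture 2, whose mean was 589 FPKM without them. That of day 12 capture 3 was then 30.5 FPKM, and 6 of 25 day 12 mural cells remained at 10 FPKM or more. Only 3 of 198 matrix cells reached that level, and Hp was listed at 0 in all 26 myeloid cells. With 3 mural captures at day 12 and 1 at each later day, the days were not tested in mural cells. Hepatocyte markers accompanied Hp little, since 5 of 6, Alb among them, were at 0 in every mural cell. The mean sum of the 6 was 0, 0 and 0.708 FPKM in mural cells of day 12 captures 1, 2 and 3. Its highest mural value, 21.0 FPKM, came from day 21 capture 1, where Hp was at 0. Of the 9 mural cells, 5 also had Il6 at 10 FPKM or more, as had 8 of all 30 day 12 mural cells, and 4 had Serpina3n, against 12 of 30. Without the linked cells these counts were 3 of 6 against 6 of 25 for Il6 and 2 of 6 against 8 of 25 for Serpina3n. Day 12 capture 2 held 5 of the 9 Hp and 6 of the 8 Il6 cells among its 7 mural cells, so overlap there was forced. Without the linked cells it held 3 of the 6 Hp and 4 of the 6 Il6 cells among 5.

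Serpina3n (ENSMUSG00000021091, chromosome 12, 104406729 to 104414329, plus strand) was the most widely detected of the acute-phase members. It was at 10 FPKM or more in 58.6% of matrix, 36.8% of mural and 7.69% of myeloid cells. The matrix means were 83.6, 126 and 138 FPKM at day 12, 176 and 38.8 at day 15, and 135 and 326 at day 21. The mural means were 8.68, 256, 133, 71.8 and 174 FPKM and overlapped these. The myeloid means were 9.48, 0, 104 and 0.477 FPKM, and the one above 10 came from a single cell at 519 FPKM, which was 99.9% of its sum. The mean of 9.48 came from 1 linked cell and was 0 without the linked cells. Serpina3n lies in a cluster of near-identical genes, and Serpina3m, Serpina3c and Serpina3e-ps were the genes most like it in day 12 matrix cells (mean within-capture Spearman rho of 0.77, 0.72 and 0.62 over 74 cells), so its value is uncertain to the extent that the estimation could split reads among them. Serpina3g, another member of the cluster, had a mean of 15.7 FPKM over matrix and 28.1 over mural cells.

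Lcn2 (ENSMUSG00000026822, chromosome 2, 32384633 to 32388252, minus strand), which encodes an iron-siderophore binding protein of neutrophils and inflamed epithelium, was listed at 0 in all 367 cells, so that its share is at most 0.817%. Of 8 neutrophil markers, S100a8, Retnlg, Ly6g and Camp were likewise at 0 in every matrix, mural and myeloid cell. Others were not, with means over matrix cells of 1.83 FPKM for Cxcr2 and 1.79 for Mpo. The sum of the 8 markers reached 55.1 FPKM in the myeloid cells of day 21 capture 2.

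Changes with time were compared in matrix cells, with 3 captures at day 12, 2 at day 15 and 2 at day 21. By limma none of the 8 members tested passed in any of the 3 comparisons. Of 13552 genes, 0% passed between day 12 and day 15 (0 genes, with 791 at an unadjusted p under 0.05), 0.00738% between day 12 and day 21 (1 gene, 968) and 0% between day 15 and day 21 (0 genes, 745). Among the members other than Saa3 the counts at an unadjusted p under 0.05 were 0, 0 and 1, the last for Stat3. In simulated data for day 12 against day 21 a log2 change of 4 was called for 31% of changed genes and a change of 6 for 79.5%, so changes of the size seen for most members were mostly not detectable with 7 captures. Saa3 was part of these fits, and its own p is not given.

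The values by day were as follows for the members that moved most. For Stat3 the matrix means were 24.6, 39.7 and 36.1 FPKM at day 12, 20.7 and 11.5 at day 15, and 40.7 and 133 at day 21, so both day 21 captures lay above both of day 15. The difference from day 15 to day 21 was 2.18 (SE 0.694, limma adjusted p = 0.767). Il6 matrix means were 0, 26.2 and 0 at day 12, 84.6 and 0.228 at day 15, and 9.25 and 179 at day 21. Its difference from day 12 to day 21 was 3.84 (95% interval −0.49 to 8.16, adjusted p = 0.723), and the days overlapped. Osmr was 27.4, 15.9 and 27.9 FPKM at day 12, 10.8 and 7.30 at day 15 and 9.17 and 11.8 at day 21. All 3 day 12 captures lay above the 4 later ones, with differences of −1.28 to day 15 (SE 0.649, adjusted p = 0.871) and −1.07 to day 21 (SE 0.649, adjusted p = 0.764). Serpina3n and Il6st overlapped between days 12 and 21, with differences of 0.89 (adjusted p = 0.802) and 1.26 (adjusted p = 0.805), and Socs3 of −0.10. For Saa3, described without a test, the difference from day 12 to day 21 was −6.18, and the lowest day 12 mean of 20.7 FPKM stood against 0.400 for the higher of day 21. In that day 12 capture, capture 3, 1 cell at 348 FPKM gave 99.1% of the sum, and without it the mean was 0.199 FPKM, under that of day 21 capture 1.

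**Figure D5:**
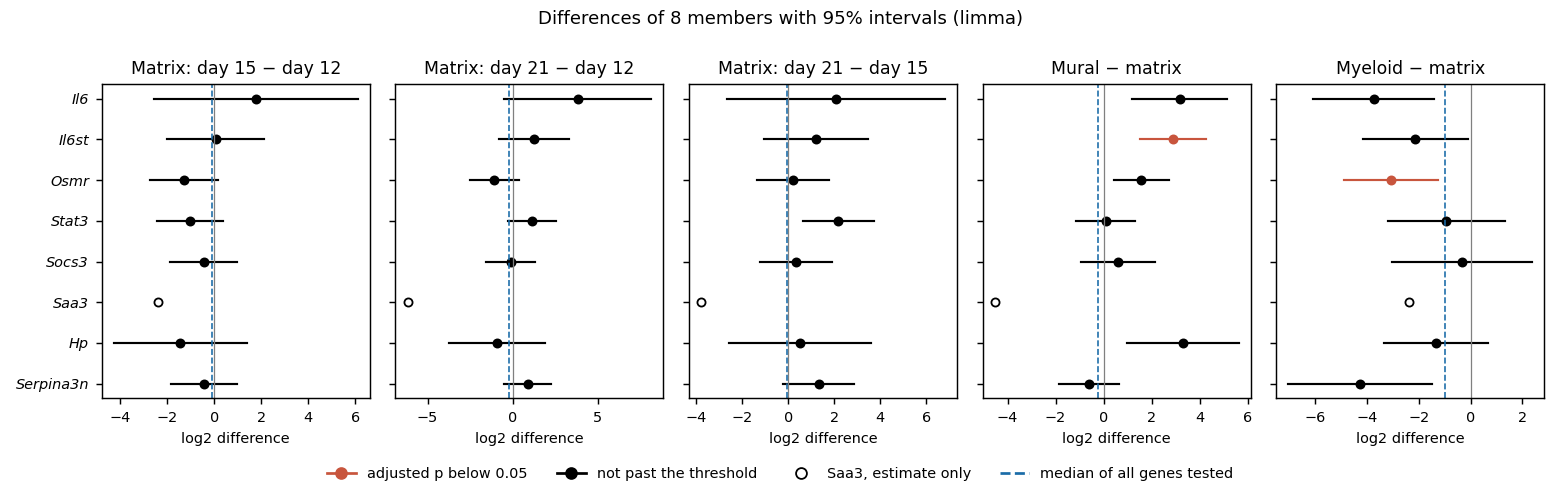
Differences of 8 members on the log2(mean FPKM + 1) scale with 95% intervals from limma, for 3 pairs of days in matrix cells and for mural or myeloid minus matrix cells, with Saa3 as an open point without interval. Only Il6st (mural, 2.89) and Osmr (myeloid, −3.08) were past the adjusted threshold. Osmr, Il6 and Hp entered the myeloid comparison only through their matrix values, so the Osmr call is a description. The dashed line marks the median of all genes, which is −0.998 in the myeloid panel.

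Other genes of the route were read from lists of known members. Of 10 kinases and STAT proteins outside the 9 genes, 8 were tested and none passed in any of the 5 comparisons by limma, with median differences of 0.29 in the mural and −0.09 in the myeloid comparison. Jak1, a kinase bound to gp130, had mural means of 71.03 to 222 and matrix means of 24.7 to 163 FPKM, with a difference of 1.34 (adjusted p = 0.219). Among inhibitors of cytokine signalling, none of 11 tested passed between mural and matrix cells, where Socs2 and Ptpn2 had 0.30 and −0.14. Between myeloid and matrix cells Ptpn6, a phosphatase of blood cells, was called higher (7.18) and Socs5 lower (−3.08), 2 of 10 tested, and the medians of the list were −0.14 and −0.79. Each of these 2 genes entered the test only through the kind where it was high, so both calls are descriptions. Of 14 STAT3 target and C/EBP genes none passed between mural and matrix cells (Nnmt −0.89 and Ier3 0.41), and Pim3 was called higher in myeloid cells (3.91), with medians of 0.14 and 0.65. Pim3 likewise entered only through its myeloid values, with a mean of 0.186 FPKM in matrix cells.

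Acute-phase genes outside the members gave few calls. Of 27, 12 were tested between kinds, with medians of 0.15 in the mural and −2.20 in the myeloid comparison. Serping1, the inhibitor of complement C1, was higher in mural cells (1.73, SE 0.301, adjusted p = 0.0204) and lower in myeloid cells (−4.62, adjusted p = 0.0496). The metallothionein Mt1 was higher in myeloid cells (2.38, SE 0.518, adjusted p = 0.0286). No gene of any of these lists passed between days.

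Genes that answer to NF-kB were called in both directions between mural and matrix cells, 2 higher and 1 lower of 16, with a median of 0.48, and 1 was higher in myeloid cells, with a median of 0.43. The neutrophil chemokine Cxcl1 was higher by 2.86 (SE 0.324, adjusted p = 0.00221) and the monocyte chemokine Ccl2 by 2.18 (SE 0.303, adjusted p = 0.00648), while Cxcl12 was lower (−3.82, SE 0.760, adjusted p = 0.0384). Cxcl1 means in mural cells were 5.78, 3718, 1086, 1500 and 1043 FPKM, so day 12 capture 1, where Il6 was at 0 in both kinds, was also the lowest capture for Cxcl1, and Cxcl1 was listed at 0 in its matrix cells. In myeloid cells the gene called was the chemokine Ccl7 (2.67, adjusted p = 0.00891). Of 16 immediate early and stress genes, which can respond to the handling of cells, Hspa8 was higher in mural cells (1.098, adjusted p = 0.0227), and Atf3 and Dusp1 were higher in myeloid cells (5.16, adjusted p = 0.00778, and 1.93, adjusted p = 0.0447), and the median was 0.80 in both comparisons. Their part in the member values was not tested.

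Genes most like a member over the 16 capture-by-kind means were taken by Pearson correlation on the log2 scale among 6774 genes, as a description. For Osmr they were Gm15261, Pdgfrb and Il1r1 (0.96, 0.95 and 0.95), for Il6st Gm9780, Hoxa10 and Ppp1r12a (0.93, 0.89 and 0.88), and for Il6 they included Entpd2 and Myc (0.87 and 0.86). Saa3 was closest to Mmp9, Tnn and Bcat1 (0.86, 0.74 and 0.72), and Hp to Ephx3, Crybb3 and Rasl12 (0.81, 0.81 and 0.80). The means come from 7 captures, so the points share libraries.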

How the data were processed

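Single tdTomato-high wound cells were captured on a Fluidigm C1 system, converted by SMART-seq2 and sequenced as paired ends. The deposited values are FPKM per gene and cell, which the authors made with Bowtie 1.0.0 and RSEM on mm10 with the GENCODE M13 annotation, excluding doublets by microscopy of the wells. FPKM values are relative, so a few very abundant transcripts lower the rest of a cell. They hold no counts, and intervals and floors for shares of cells (95% exact Clopper-Pearson, 3 cells for a count of 0) cover counting error only.

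Of 50600 identifiers, 50376 matched a GENCODE M21 symbol. Kept cells had 159000 or more fragments by estimate, no more than 11000 genes above 0 and 15% or less mitochondrial signal. The capture was the replicate, since cells of 1 capture share their source. Mean FPKM per capture and kind (at least 3 cells) was taken as log2(mean + 1), genes under a mean of 1 FPKM were left out, and limma 3.58.1 with a variance trend was fitted in R 4.3.3, with day as the factor in matrix cells, or with kind and with capture as a block. Linked cells were pairs in which at least 10% of at least 300 common genes lay in a window of ratios 0.2 wide (log2). Common genes were those above 2 FPKM in both cells. Fits were tested on simulated data. Alternatives were a pseudocount of 10, scaling to TPM, means of logged values, no cell filters, no filter on low values, another use of the block and leaving out each capture. The members and lists were chosen with earlier results of these data known. All 9 members were named, and from each list the genes that passed with the largest differences, at most 4, or else the 2 with the highest mean in matrix cells. Python 3.11.15, numpy 2.4.6, pandas 2.3.3, scipy 1.17.1 and matplotlib 3.10.9 were used for the rest. Some results that the naming rule would give are not reported here.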

Additional observations from a re-analysis of the deposited data

Results flagged for a closer look

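For Socs3, the difference between mural and matrix cells was −2.37 on the log2 scale in day 12 capture 1, far from the other captures. Its gap to the nearest was 0.804 of the range, against a critical value of 0.71 (Dixon's criterion, which chance meets in about 1 of 20 sets, with 16 sets examined). For Saa3, the difference between myeloid and matrix cells was −10.1 in day 12 capture 2, also far from the others. That capture held the matrix cell at 36811 FPKM, and since the high Saa3 of day 12 matrix cells was known beforehand, the value is a description and nothing is read from its distance.

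For Stat3, myeloid cells lay above matrix cells in the day 12 capture by 0.0617 on the log2 scale and under them in each of the later captures. The difference between days was not tested, and it rests on 1 capture at day 12.

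Members were also found in cells that entered no comparison. Among the 11 kept cells of no kind, Serpina3n was at 10 FPKM or more in 8, Il6st in 6 and Osmr in 4. Among the 75 cells outside the filters, the counts at this level were 15 for Serpina3n, 15 for Stat3, 11 for Il6st, 7 for Socs3, 6 for Il6 and 6 for Osmr.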

How the results depend on the processing

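Calls of single members depended on the settings. Leaving out linked cells and leaving out the highest cell of each capture were chosen after seeing the data. Between mural and matrix cells 1 member passed, against 0 with a pseudocount of 10, with scaling to TPM, without cell filters, without the filter on low values and without linked cells, 2 with means of logged values (7 members tested) and 0 to 1 when a capture was left out. The member called without day 21 capture 1 was Saa3, which is described without a test, so nothing is read from that call. Between myeloid and matrix cells 1 was called, Osmr, which entered only through its matrix values. Against this 1, the count was 0 with a pseudocount of 10, without cell filters and without the filter on low values. It was 3 with TPM, 2 without linked cells, 3 without the highest cell and 0 to 1 when a capture was left out. The cause was not tested. TPM moved the median of all genes from −0.22 to −0.33 in the mural and from −0.998 to −1.20 in the myeloid comparison. Between days, deviations of captures with the same number correlated by at most 0.03 in size. Each pair of days included a day with 2 captures, whose deviations mirror each other. Same-number values therefore had different-number counterparts of equal size and opposite sign, and they cannot decide whether capture numbers pair the days. With the number as a replicate block, 0 members and 0 genes were called in each of the 3 day comparisons. At an unadjusted p under 0.05 there were 640, 776 and 651 genes. Without the capture block 1 member passed in each kind comparison.

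Genes called over the whole table moved further. For day 12 against 15 the count was 0 and became 70 with means of logged values. For day 12 against 21 it was 1 and became 89 with means of logged values and 0 with TPM, without the filter on low values, with the block, without the highest cell and without any capture. For day 15 against 21 it was 0 and became 1 with a pseudocount of 10. For mural cells 236 became 700 with means of logged values, 685 without the highest cell, 19 without the filter on low values and 102 to 228 without a capture. For myeloid cells 861 became 183 with a pseudocount of 10, 1365 with TPM, 485 without cell filters, 31 without the filter on low values, 3770 without the highest cell and 108 to 340 without a capture.

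Shares of cells fell from those above 0 FPKM to those at 10 FPKM or more. For Saa3 they went from 47.98 to 5.05% in matrix, 35.1 to 1.75% in mural and 50 to 0% in myeloid cells. Serpina3n in matrix cells went from 72.2 to 58.6%, and Il6 from 15.7 to 8.08% in matrix and 7.69 to 0% in myeloid cells. In matrix, mural and myeloid cells Il6st went from 75.3, 93.0 and 50% to 25.8, 59.6 and 7.69%, Socs3 from 37.9, 57.9 and 42.3% to 21.2, 22.8 and 19.2%, Stat3 from 82.8, 87.7 and 80.8% to 38.4, 38.6 and 42.3%, and Osmr from 40.9, 73.7 and 11.5% to 21.7, 49.1 and 0%.

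No difference that passed changed sign. Signs turned for Il6st between days 12 and 15 (−0.009 with means of logged values, −0.26 without cell filters), for Socs3 between days 12 and 21 (0.085 with TPM, 0.057 without linked cells, 0.05 without the highest cell), for Osmr between days 15 and 21 (−0.55 without the highest cell), for Socs3 (−0.249 without the highest cell) and Stat3 (−0.037 with TPM, −0.229 without cell filters, −0.326 without linked cells, −0.277 without the highest cell) in mural cells and for Socs3 in myeloid cells (0.144 with a pseudocount of 10, 0.179 with means of logged values). Leaving out a capture gave ranges that crossed 0 for Il6 (−1.29 to 4.83), Il6st (−0.485 to 0.616), Saa3 (−6.30 to 1.50) and Serpina3n (−1.52 to 0.631) from day 12 to 15, Socs3 (−0.567 to 0.361) from day 12 to 21, Il6 (−0.994 to 5.13), Osmr (−0.051 to 0.461), Saa3 (−7.68 to 0.128) and Socs3 (−0.115 to 0.813) from day 15 to 21, Serpina3n (−1.02 to 0.013) and Stat3 (−0.33 to 0.442) in mural cells and Socs3 (−1.21 to 1.03) in myeloid cells. Over all settings 487 member differences kept their direction and side of the threshold, 28 reversed, 16 lost and 9 gained a call.

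With 2 to 5 captures behind each estimate and 3 to 18 cells behind each mural or myeloid mean, single cells set the level of Saa3, Il6 and Hp. A log2 change of 4 was called for 0% of changed genes in simulated myeloid comparisons and a change of 6 for 36%.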
